A study of Mus musculus with 40 samples.

Results

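The comparison set 4 short hairpin RNAs (shRNAs) with 1U in their names against 4 gene-named shRNAs without it, all expressed in 4T1 cells, a mouse mammary carcinoma line. The members were chosen by name within the table for each targeted gene, which gave 32 of the 40 samples of the series, 16 with a 1U-named hairpin and 16 with another gene-named hairpin. The labels give 4 samples per hairpin, and the tables hold 2 columns for each, called libraries here. The 1U-named hairpins were Slpi1U1 and Slpi1U2 against Slpi, and Mgp1U1 and Mgp1U3 against Mgp. The hairpins set against them were Slpi2 and Slpi4, and Mgp1 and Mgp2. All 8 lines were infected at a multiplicity of 0.3 and kept in 500 µg/ml hygromycin for about 10 days, so vector drug and dose were shared by both groups. RNA was taken from infected pools: 100 ng was amplified, sheared to about 200 bp and read in 76 bp reads. The series asks how far shRNAs of different design change RNAs other than their target, and the remaining hairpin of each gene, which carries a catalogue number and was selected with another drug, was left out here. Lines without a hairpin, or with a hairpin that targets neither gene, were not analysed here, so each hairpin is described relative to the other hairpins only.

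A short hairpin is cut by Drosha and Dicer1 into a small duplex, and 1 strand, the guide, is loaded into an Argonaute protein. Ago2 slices RNAs that pair with the whole guide, while any Argonaute can lower RNAs that pair only with the guide's seed near its 5′ end, the usual route of off-target effects. Human AGO2 holds the first base of a guide in a pocket that favours U or A. The labels do not spell out what 1U stands for, and guide sequences of these hairpins were not used here, so the classes are classes of names. Slpi encodes a secreted inhibitor of neutrophil serine proteases. Mgp, matrix Gla protein, is secreted, limits calcification and binds bone morphogenetic proteins.

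Each hairpin had 2 libraries, and the libraries of a hairpin share its guide, so the hairpin was the replicate for the comparison of classes (n = 2 hairpins against 2 in each table). A second fit, with libraries as samples, asked only whether these lines differed on average from those lines by more than their libraries did. Nothing in the labels says that libraries came from separate cultures, so their spread may be technical. The 1U-named libraries held 12176854 to 15542120 reads in the Slpi table, against 17323619 to 20374180 reads in the other libraries, so depth moved with class there. They held 12082237 to 17921211 reads in the Mgp table, against 14488005 to 22908269 reads in the others. The 6 mammary carcinoma markers (Epcam, Cdh1, Krt8, Krt18, Krt7 and Cldn4) summed to 1507 to 2072 CPM (reads of a gene scaled to a common library total) over the 16 libraries, with overlap between the classes in both tables. Of the 5 leukocyte markers (Ptprc, Cd68, Adgre1, Cd3e and Csf1r), Cd68 was the most abundant and the list summed to at most 9.33 CPM. The 4 endothelial markers (Pecam1, Cdh5, Kdr and Tek) summed to at most 1.45 CPM and the 5 fibroblast markers (Pdgfra, Pdgfrb, Dcn, Lum and Thy1), of which Pdgfra was the most abundant, to 24.9 to 53.4 CPM. Adgre1, Kdr and Thy1 were at 0 in every Mgp-table library used here. Cd3e was at 0 in the other libraries of that table, Thy1 in the 1U-named libraries of the Slpi table, and Lum in the 1U-named libraries of the Slpi table and the other libraries of the Mgp table.

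The classes differed in Slpi by less than the spread between hairpins. Slpi stood at 46.9 and 49.5 CPM in the Slpi1U1 libraries and at 53.5 and 57.4 CPM in the Slpi1U2 libraries. The other hairpins gave 48.3 and 48.8 CPM in the Slpi2 libraries and 61.9 and 59.9 CPM in the Slpi4 libraries. Slpi1U1 and Slpi2 shared the low end and Slpi4 stood highest, so the libraries of the classes overlapped. The class means were 51.8 ± 5.12 CPM for the 1U-named hairpins and 54.7 ± 8.71 CPM for the others (SD, n = 2 hairpins each). Set against the mean of 498 CPM over the 4 gene-named lines with hairpins against Mgp, without a test because the tables were normalized separately, these are 10.4% for the 1U-named hairpins and 11.0% for the others. The difference, 1U-named minus other, was −0.07 on the deposited variance-stabilized scale, with a 95% interval of −0.23 to 0.10 with hairpins as samples (limma, adjusted p = 0.802). An exact two-sided permutation test over the 4 hairpin means gave p = 0.667, and 0.3333 is the smallest p that this design allows. On this scale a doubling from 1000 reads is a difference of 0.77. Without Slpi2 the difference was −0.18 and passed the threshold with libraries as samples (adjusted p = 0.0353), and without Slpi4 it was 0.05.

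Lowering of Mgp ranged widely among the 1U-named hairpins. Mgp stood at 8.42 and 8.22 CPM in the Mgp1U1 libraries, from 140 and 132 reads, and at 1.06 and 1.24 CPM in the Mgp1U3 libraries, from 19 and 15 reads. It stood at 2.47 and 3.19 CPM in the Mgp1 libraries and at 1.90 and 2.07 CPM in the Mgp2 libraries. Mgp1U1 therefore left the most Mgp and Mgp1U3 the least, with both other hairpins between them. In infected pools, fewer cells with a lowered RNA and less lowering per cell cannot be told apart. Relative to the mean of 20.6 CPM in the 4 gene-named lines with hairpins against Slpi, Mgp was at 40.4% in Mgp1U1 cells, 5.59% in Mgp1U3 cells, 13.7% in Mgp1 cells and 9.65% in Mgp2 cells. Those reference lines ran from 15.4 CPM in Slpi2 to 29.9 CPM in Slpi4 cells, so the percentages depend on the reference taken. The exact 95% intervals for counting error alone were 7.08 to 9.94 CPM for the first Mgp1U1 library and 0.638 to 1.66 CPM for the first Mgp1U3 library, against 1.81 to 3.29 CPM for the first Mgp1 library and 1.37 to 2.57 CPM for the first Mgp2 library. Reads are not independent molecules after amplification, so these intervals cover counting error only.

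The class means for Mgp were 4.74 ± 5.07 CPM for the 1U-named hairpins and 2.41 ± 0.593 CPM for the others (SD, n = 2 hairpins each). The difference was 0.15, with a 95% interval of −0.16 to 0.47 with hairpins as samples (adjusted p = 0.925), and the exact permutation p was 1. With libraries as samples the same difference passed the threshold (adjusted p = 0.00597), but it rested on 1 hairpin. Without Mgp1U1 it was −0.17 (adjusted p = 0.0222), so the 1U-named side was then the lower one, and without Mgp2 (0.11) or the first Mgp1 library it lost the call. Voom on the recovered reads did not call it either (adjusted p = 0.165). In lines whose hairpins target the other gene, Slpi stood at 455 to 613 CPM in 1U-named libraries against 448 to 516 CPM in the others, and Mgp at 14.8 to 22.6 CPM in 1U-named libraries against 15.1 to 31.2 CPM in the others. The differences there, 0.14 for Slpi and −0.14 for Mgp, passed the threshold with libraries as samples only (adjusted p = 0.0364 and 0.0488), and each reversed without a single hairpin, Mgp1U3 for Slpi (−0.03) and Slpi4 for Mgp (0.11).

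**Figure D1:**
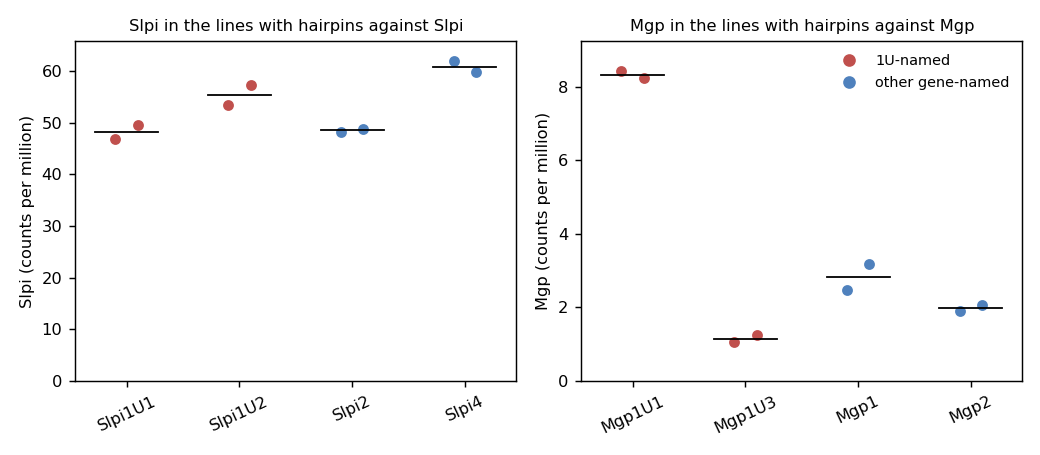
CPM of Slpi in the lines with hairpins against Slpi (left) and of Mgp in the lines with hairpins against Mgp (right), 1 dot per library and a line at the mean of each hairpin, 1U-named hairpins in red and other gene-named hairpins in blue. For Slpi the 4 hairpins lie between 46.9 and 61.9, while for Mgp the 1U-named hairpins Mgp1U1 (8.42 and 8.22) and Mgp1U3 (1.06 and 1.24) stand at the top and the bottom.

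Across the transcriptome, few genes separated the classes when the hairpin was the replicate. With hairpins as samples, 3 of 12653 genes passed an adjusted p of 0.05 in the Slpi table (0.0237%) and 1 of 12364 in the Mgp table (0.00809%). At an unadjusted p under 0.05 there were 1288 genes among Slpi lines (10.2%) and 751 among Mgp lines (6.07%). With libraries as samples 674 genes were called in the Slpi table (5.33%), 340 higher (2.69%) and 334 lower (2.64%) in the 1U-named lines. The Mgp table had 951 called genes (7.69%), with 444 higher (3.59%) and 507 lower (4.1%). The direction of these calls depended on the processing. With voom on the recovered reads 492 of 699 calls in the Slpi table and 321 of 1072 in the Mgp table were higher in the 1U-named lines. With library medians set equal 392 of 681 and 675 of 1066 were higher, and with reads thinned to the shallowest library 272 of 569 and 357 of 765.

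On the deposited scale the differences were small, but that scale compresses differences of low genes. Asb14, for example, had a difference of 0.21 in the Mgp table with a fold, from scaled reads, of 1.71. Among the genes called with libraries as samples the median absolute difference was 0.15 for Slpi lines and 0.14 for Mgp lines, and 6 and 3 genes reached 0.5. The largest was that of Kcnq1ot1 (0.75) in the Slpi table and that of Neat1 (−0.60) in the Mgp table. Slpi4 was the hairpin farthest from the mean of the 4 for 38.1% of the 674 called genes, against 29.4% of all genes tested. Among Mgp lines Mgp2 was for 33.4% and Mgp1U3 for 31.2% of the 951 called genes, against 30.4% and 28.3% of all genes tested. Leaving out the second Mgp2 library raised the number called in the Mgp table to 2180, and leaving out the first Mgp1 library lowered it to 284. In the Slpi table it was 1156 without the second Slpi1U1 library and 209 without the first Slpi2 library.

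Hairpins of a class were not uniformly closer to each other than to hairpins of the other class. Over all genes tested in the Slpi table, the root-mean-square difference between hairpin means was 0.0723 between both 1U-named hairpins and 0.0844 between both others, and 0.0764 to 0.0956 for the 4 pairs across classes. For Mgp hairpins it was 0.0922 between both 1U-named hairpins and 0.0947 between both others, and 0.0861 to 0.114 across classes. There, 3 of the 4 pairs across classes were closer than either pair within a class. Libraries of 1 hairpin differed by 0.0703 to 0.0905 in the Slpi table and 0.0551 to 0.0976 in the Mgp table; these compare single libraries, whereas a hairpin mean averages its libraries.

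**Figure D2:**
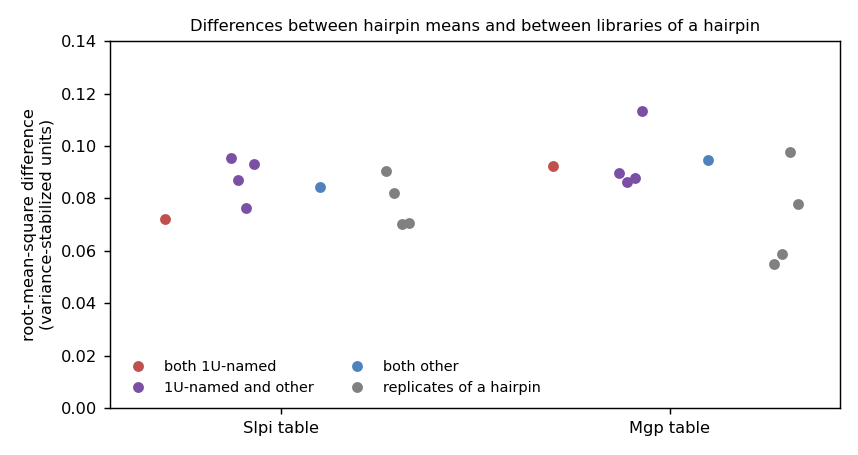
Root-mean-square difference over all genes tested (vertical axis, variance-stabilized units) between both 1U-named hairpins, between a 1U-named and another hairpin, between both other hairpins, and between the libraries of a hairpin, for each table. In the Slpi table the 1U-named pair (0.0723) is the closest pair of hairpins; in the Mgp table the widest pair is a 1U-named and another hairpin (0.114), and the 3 remaining pairs across classes lie below both pairs within a class.

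No gene was called in both tables with hairpins as samples, by limma or by voom on the recovered reads. At an unadjusted p under 0.05 in both, 53 genes differed in the same direction (0.432% of the 12261 genes tested in both tables) and 72 in opposite directions (0.587%). With libraries as samples 119 genes were called in both tables, 43 in the same direction (0.351%) and 76 in opposite directions (0.62%). Both counts moved by over 1.5 times with single libraries, the first without 13 and the second without 11 of the 16. They were lowest without the first Slpi2 library, at 14 and 28, and highest without the second Mgp2 library, at 72 and 118. The count of opposite direction was the higher one without each library, but both were 51 without the Mgp1U1 hairpin. Among the 12261 genes 46.8% had differences of the same sign in both tables.

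Of the 330 genes higher in the 1U-named lines of the Slpi table and tested in both, 32 (9.70%, or 7.24% of the 442 higher in the Mgp table) were also higher in the Mgp table, where 3.605% of all genes were. A larger number, 44 (13.3%, or 8.68% of the 507 lower in the Mgp table), were lower there, against 4.14% of all genes. Of the 334 genes lower in the 1U-named lines of the Slpi table, 11 (3.29%, or 2.17% of those lower in the Mgp table) were also lower in the Mgp table and 32 (9.58%, or 7.24% of those higher there) were higher. When all 4 1U-named libraries had to lie outside the range of the other 4 in both tables, 17 of the 43 genes of the same direction remained, 16 higher and 1 lower, and 46 of the 76 of opposite direction. Without regard to the test, 663 genes lay wholly above (5.24%) and 574 wholly below (4.54%) in the Slpi table, and 518 (4.19%) and 668 (5.4%) in the Mgp table; a total of 55 did so the same way in both (0.449%) and 108 in opposite ways (0.881%).

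**Figure D3:**
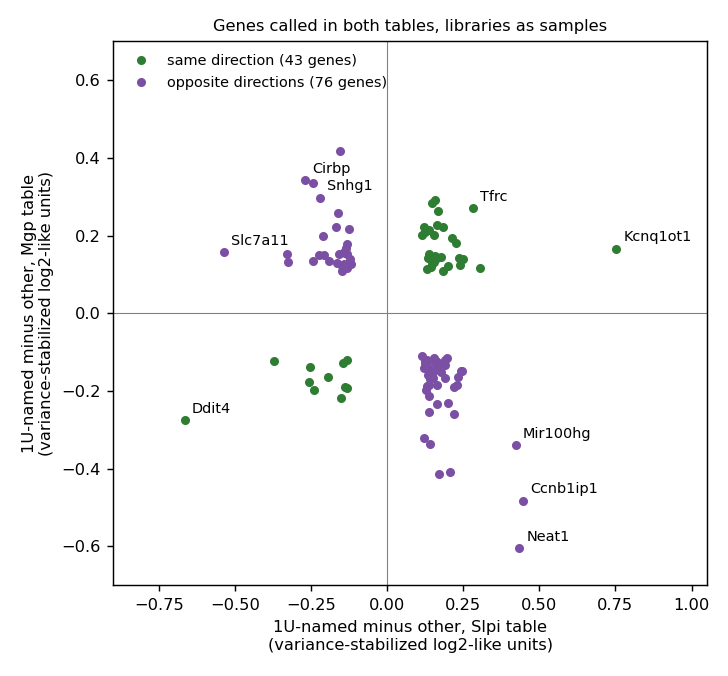
Each dot is a gene called in both tables with libraries as samples, placed by its difference between 1U-named and other hairpins of the Slpi table (horizontal) and of the Mgp table (vertical), in variance-stabilized log2-like units, with 43 genes of the same direction in green and 76 of opposite directions in purple. Kcnq1ot1 (0.75 and 0.17) lies far to the right on the same side, while Neat1 (0.43 and −0.60) and Ccnb1ip1 (0.45 and −0.48) lie on opposite sides.

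Genes called higher in the 1U-named lines of both tables had long transcripts. The longest GENCODE transcript had a median of 7.85 kb over the 32 genes called higher in both tables (31 matched), against 3.34 kb over all genes tested in both, and of 3.09 kb over the 11 called lower in both. All genes called higher had medians of 4.36 kb (Slpi table) and 4.06 kb (Mgp table). All genes called lower had medians of 2.71 kb and 3.55 kb. Genes higher in the Slpi table and lower in the Mgp table had a median of 3.96 kb, and those of the reverse order 3.10 kb. Transcript length moved with class in the Slpi table: the rank correlation of the difference with length across 12546 genes was 0.20, and −0.02 with GC content. The Mgp-table values were 0.06 and −0.23 across 12270 genes. For single Mgp hairpins, the correlation of the deviation from the hairpins' mean with GC content was 0.18 in Mgp1U1 and −0.40 in Mgp1U3. It was −0.24 in Mgp1 and 0.43 in Mgp2. With length the values were −0.12 in Mgp1U1 and 0.17 in Mgp1U3, against 0.27 in Mgp1 and −0.28 in Mgp2. Both correlations thus had opposite signs within each class of that table. The part of length and GC content in these differences was not tested.

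Kcnq1ot1, the long RNA that silences the Kcnq1 imprinted domain in cis (mm10 chromosome 7, 143213111 to 143296547, minus strand), had the largest difference of this group. It stood at 466 and 466 CPM in Slpi1U1 libraries and 490 and 483 CPM in Slpi1U2 libraries, against 336 and 322 CPM in Slpi2 libraries and 216 and 214 CPM in Slpi4 libraries. The 1U-named libraries were close together and above all others, and Slpi4 lay well below Slpi2. The fold, from scaled reads, was 1.72 with a difference of 0.75 ± 0.03 (SE, adjusted p = 8.99e-10 with libraries as samples, 0.193 with hairpins as samples). Among Mgp lines it stood at 220 and 219 CPM in Mgp1U1 and 232 and 235 CPM in Mgp1U3 libraries, against 211 and 209 CPM in Mgp1 and 191 and 195 CPM in Mgp2 libraries. Here the order of classes was the same but the fold was only 1.14 (adjusted p = 0.00297 with libraries as samples, 0.807 with hairpins as samples). The RNA lies within Kcnq1 on the opposite strand; Kcnq1 itself was listed at up to 0.785 CPM, and the strand setting of the counts is not given in the sources used here.

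The other named genes of this group had smaller differences. They included Mdn1, a ribosome assembly ATPase, Birc6, a large inhibitor of apoptosis, Nf1, a Ras GTPase-activating protein, the histone methyltransferase Kmt2a and the chromatin remodeller Chd7. Mdn1 stood at 355 to 387 CPM in 1U-named libraries against 298 to 334 CPM in the others of the Slpi table, and at 399 to 474 CPM against 356 to 401 CPM in the Mgp table, where the libraries meet in CPM but not on the deposited scale, on which overlap was judged. Chd7 stood at 80.5 to 87.5 CPM in 1U-named libraries against 65.3 to 67.8 CPM in the others of the Slpi table, and at 76.4 to 82.9 CPM against 69.8 to 72.8 CPM in the Mgp table. Folds for these 5 genes lay between 1.10 and 1.25.

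Larger folds came from genes at low levels. Asb14, which encodes an ankyrin repeat and SOCS box protein, stood at 5.09 to 6.37 CPM in 1U-named libraries against 3.19 to 4.56 CPM in the others of the Slpi table, a fold of 1.42. Among Mgp lines it stood at 5.36 to 7.46 CPM in 1U-named libraries against 3.24 to 4.89 CPM in the others, a fold of 1.71. Alas2, the erythroid enzyme that starts haem synthesis, had folds of 1.59 and 1.45, but its exons share 15.5% of their bases with Apex2 and Mir3620. Apex2 stood above Alas2 itself, at 11.3 to 14.03 CPM in 1U-named libraries against 9.67 to 12.1 CPM in the others of the Slpi table, and at 11.0 to 11.6 CPM against 10.4 to 13.2 CPM in the Mgp table, and its part in the Alas2 counts was not tested. Plk2, a polo-like kinase, had folds of 1.17 and 1.26. Ttll4, a tubulin glutamylase, Eid3, part of a SMC5/6 subcomplex, and Sycp1, a protein of the meiotic synaptonemal complex, completed the 12 named genes.

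None of these 12 genes passed the threshold with hairpins as samples in either table. Kcnq1ot1 was the only 1 of the 12 that kept both calls when each library was left out in turn, and 0 of the 12 kept both when each hairpin was left out in turn. Among genes called in both tables with libraries as samples, the only one lower in both without overlap was listed as 1810011O10Rik, now Tcim, a regulator of growth signalling that was named after its values were seen. It stood at 34.4 to 41.7 CPM in 1U-named libraries against 45.1 to 46.0 CPM in the others of the Slpi table (difference −0.19). Its Mgp-table values were 21.3 to 25.1 CPM in 1U-named libraries against 26.6 to 30.7 CPM in the others (difference −0.16). Tfrc, the transferrin receptor, also named after its values were seen, was called higher in both tables (differences 0.28 and 0.27), with overlap between libraries in each. Ddit4, an inhibitor of mTOR complex signalling, was called lower in both (differences −0.67 and −0.28), also with overlap. Its deviation from the mean of the 4 Slpi hairpins was −0.63 in Slpi1U1 and −0.03 in Slpi1U2, against 0.63 in Slpi2 and 0.04 in Slpi4. Its Mgp-table call was lost without 3 of the 8 libraries left out in turn. Tcim, Tfrc and Ddit4 were not called with hairpins as samples in either table (limma, adjusted p = 0.281 to 0.753).

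Ccnb1ip1, Mir100hg, Cirbp and Snhg1 led the genes called in opposite directions without overlap. Ccnb1ip1, a RING-domain protein of meiotic crossing-over, stood at 93.2 and 81.2 CPM in Slpi1U1 and 74.5 and 78.6 CPM in Slpi1U2 libraries, against 53.4 and 51.0 CPM in Slpi2 and 55.2 and 49.8 CPM in Slpi4 libraries. Among lines with hairpins against Mgp it stood at 70.5 and 62.9 CPM in Mgp1U1 and 85.7 and 92.9 CPM in Mgp1U3 libraries, against 120 and 119 CPM in Mgp1 and 114 and 129 CPM in Mgp2 libraries. The 1U-named libraries thus lay wholly above the others in the Slpi table and wholly below them in the Mgp table. Its difference was 0.45 in the Slpi table (limma with hairpins as samples, adjusted p = 0.0487) and −0.48 in the Mgp table (adjusted p = 0.221 with hairpins and 2.66e-06 with libraries as samples). Its exons share 12.4% of their bases with Rpph1, the RNA of RNase P, which was listed at 0.386 to 2.12 CPM.

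Mir100hg, the host RNA of a microRNA cluster that the tables list as 2610203C20Rik, showed the same opposition. It stood at 453 to 484 CPM in 1U-named libraries against 302 to 367 CPM in the others of the Slpi table (difference 0.42), and at 235 to 263 CPM against 321 to 337 CPM in the Mgp table (difference −0.34). Cirbp, the cold-inducible RNA-binding protein, went the other way. It stood at 14.2 to 16.2 CPM in 1U-named libraries against 20.9 to 24.1 CPM in the others of the Slpi table (difference −0.27), and at 21.3 to 27.7 CPM against 13.8 to 16.1 CPM in the Mgp table (difference 0.34). Snhg1, a host RNA of small nucleolar RNAs, had differences of −0.22 and 0.30, and 20.9% of its exon bases are shared with other annotated genes. Neat1, the architectural RNA of paraspeckles, was named after its values were seen. It stood at 116 and 118 CPM in Mgp1U1 and 140 and 145 CPM in Mgp1U3 libraries, against 213 and 209 CPM in Mgp1 and 205 and 229 CPM in Mgp2 libraries (difference −0.60). In the Slpi table its difference was 0.43, with 265 to 302 CPM in 1U-named libraries against 260 and 266 CPM in Slpi2 and 149 and 147 CPM in Slpi4 libraries, so there it followed Slpi4.

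Besides Ccnb1ip1, the calls with hairpins as samples were Mt2 and Tbrg3 in the Slpi table and Rsrp1 in the Mgp table. Mt2 encodes a metallothionein, a small protein that binds zinc and copper. It stood at 32.9 and 47.3 CPM in Slpi1U1 and 46.7 and 41.0 CPM in Slpi1U2 libraries, against 66.2 and 66.2 CPM in Slpi2 and 64.7 and 76.5 CPM in Slpi4 libraries. The 1U-named libraries all lay below the others, and the fold, other over 1U-named, was 1.66 (difference −0.51, adjusted p = 0.0232 with hairpins as samples). Among Mgp lines Mt2 stood at 140 to 157 CPM in 1U-named libraries against 125 to 160 CPM in the others, with overlap. Mt2 shares 73.5% of its exon bases with the antisense gene Gm45774, which the tables do not list, and its reads may be split with near-identical metallothionein copies.

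Mt1, the neighbouring metallothionein gene, stood at 65.8 to 85.03 CPM in 1U-named libraries against 86.9 to 115 CPM in the others of the Slpi table (difference −0.26, adjusted p = 0.0109 with libraries and 0.323 with hairpins as samples). Its call with libraries as samples was lost without the second Slpi2 or the second Slpi4 library, without the Slpi4 hairpin and without a filter. Slc30a1, the zinc exporter of the plasma membrane, was named after its values were seen. It stood at 27.7 and 27.9 CPM in Slpi1U1 and 33.3 and 30.0 CPM in Slpi1U2 libraries, against 41.7 and 44.2 CPM in Slpi2 and 44.8 and 41.8 CPM in Slpi4 libraries (difference −0.35, adjusted p = 1.85e-05 with libraries and 0.0747 with hairpins as samples). Both genes overlapped between the classes of the Mgp table.

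The transcription factor Mtf1 is known to activate Mt2, Mt1 and Slc30a1 through metal response elements. Their promoters are shown to place the Mt2 sequence beside those of a neighbour and of a gene chosen after its values were seen, so they are no independent support for Mt2. They run from 250 bases before to 50 bases after the start, from RefSeq on GRCm38.p6, with every TGCACNC or TGCGCNC core on either strand in capitals. The window lies at chr8:94172368-94172667 for Mt2, chr8:94178839-94179138 for Mt1 and chr1:191906531-191906830 for Slc30a1, all on the plus strand. For Mt1 and Slc30a1 the start used lies inside the annotated gene, which begins at 94178883 and 191906697.
Mt2: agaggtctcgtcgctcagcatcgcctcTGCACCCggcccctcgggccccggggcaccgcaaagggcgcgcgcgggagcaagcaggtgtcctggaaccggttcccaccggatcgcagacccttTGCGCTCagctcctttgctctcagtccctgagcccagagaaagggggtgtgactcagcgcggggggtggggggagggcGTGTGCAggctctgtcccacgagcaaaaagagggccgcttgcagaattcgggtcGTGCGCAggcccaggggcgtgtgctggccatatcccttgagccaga
Mt1: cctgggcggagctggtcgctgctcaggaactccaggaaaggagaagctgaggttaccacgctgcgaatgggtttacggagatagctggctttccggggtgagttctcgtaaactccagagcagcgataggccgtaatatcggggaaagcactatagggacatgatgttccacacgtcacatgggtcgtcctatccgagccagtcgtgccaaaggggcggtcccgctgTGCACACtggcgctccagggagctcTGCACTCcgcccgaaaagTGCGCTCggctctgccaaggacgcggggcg
Slc30a1: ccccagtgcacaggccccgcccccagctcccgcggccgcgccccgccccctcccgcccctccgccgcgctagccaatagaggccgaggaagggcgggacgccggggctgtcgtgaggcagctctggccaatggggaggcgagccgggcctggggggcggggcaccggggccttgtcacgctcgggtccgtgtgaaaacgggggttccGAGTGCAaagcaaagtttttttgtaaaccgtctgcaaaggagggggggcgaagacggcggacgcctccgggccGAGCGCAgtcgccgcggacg
These windows hold 4 cores for Mt2, 3 for Mt1 and 2 for Slc30a1. Of 32851 promoters of the same length, 25.7% hold at least 1 core, 7.11% at least 2, 1.97% at least 3 and 0.517% at least 4. A match describes the letters only.

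Tbrg3, a long noncoding RNA regulated by transforming growth factor beta (mm10 chromosome 15, 82890483 to 82898461), stood at 68.0 and 66.6 CPM in Slpi1U1 and 59.7 and 66.8 CPM in Slpi1U2 libraries, against 41.7 and 46.1 CPM in Slpi2 and 39.7 and 37.4 CPM in Slpi4 libraries. All 1U-named libraries lay above the others, with a fold of 1.56 (difference 0.44, adjusted p = 0.0487 with hairpins as samples). The classes overlapped in the Mgp table, at 33.3 to 40.0 CPM in 1U-named and 32.9 to 36.9 CPM in other libraries. Rsrp1, an arginine- and serine-rich protein that the tables list as D4Wsu53e, stood at 80.7 and 81.2 CPM in Mgp1U1 and 84.98 and 76.4 CPM in Mgp1U3 libraries, against 132 and 132 CPM in Mgp1 and 140 and 137 CPM in Mgp2 libraries. The gap between classes was wide relative to the spread within them, with a fold, other over 1U-named, of 1.65 (difference −0.57, adjusted p = 0.0204 with hairpins as samples). In the Slpi table Rsrp1 overlapped between classes, at 186 to 213 CPM in 1U-named and 170 to 204 CPM in other libraries.

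Each of these 4 calls was lost without some single libraries. Mt2 lost it without either Slpi1U1 library, the second Slpi1U2 library or the second Slpi4 library (adjusted p = 0.0680 to 0.128). Ccnb1ip1 lost it without either Slpi1U1 library, the second Slpi1U2, the second Slpi2 or the second Slpi4 library (0.0680 to 0.176). Tbrg3 lost it without either Slpi1U1 library, the second Slpi1U2, the first Slpi2 or the second Slpi4 library (0.0680 to 0.141). Rsrp1 lost it without the second Mgp2 or the first Mgp1U3 library (0.130 and 0.0844).

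**Figure D4:**
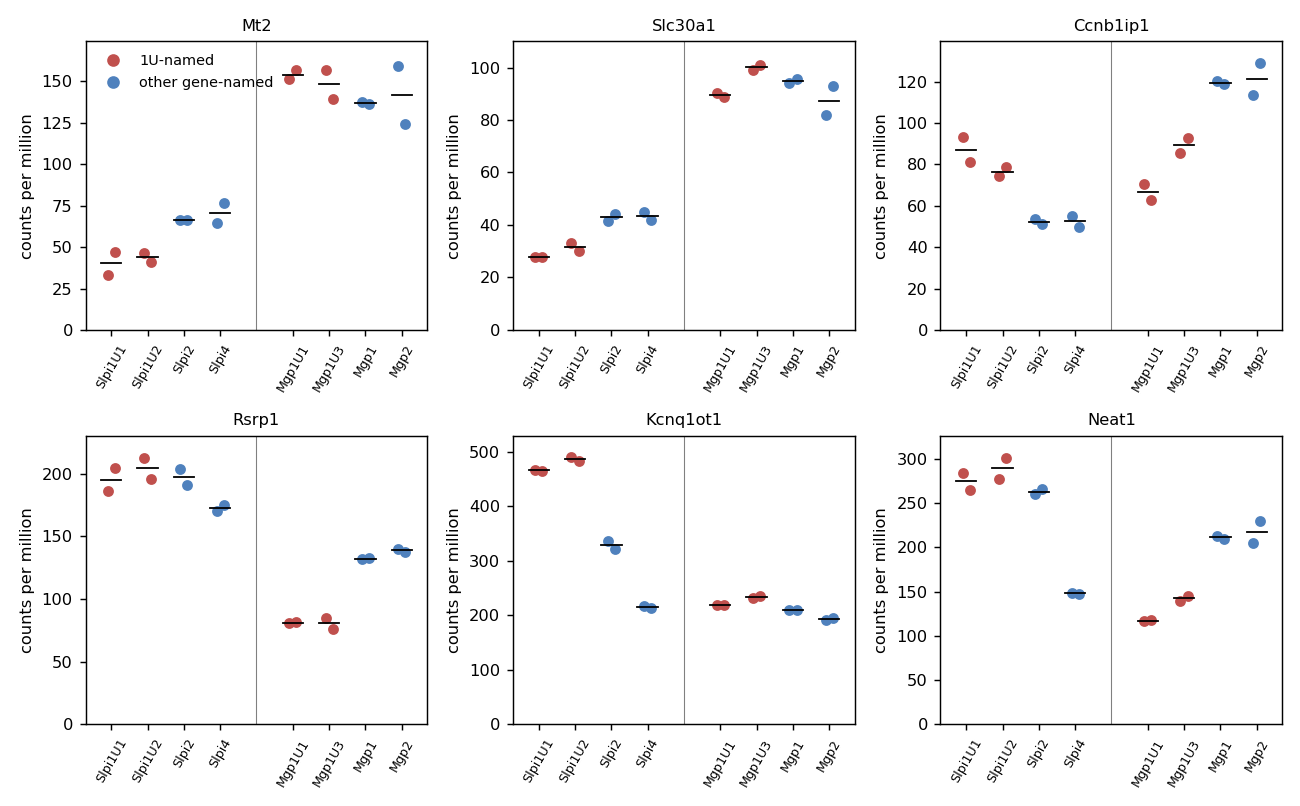
CPM of Mt2, Slc30a1, Ccnb1ip1, Rsrp1, Kcnq1ot1 and Neat1 in each library (dots) with a line at each hairpin's mean, 1U-named hairpins left of the others within each table. Mt2 and Slc30a1 separate by class in the Slpi table only, Rsrp1 in the Mgp table only, and Ccnb1ip1 in both tables with opposite order.

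The named genes higher in the 1U-named lines of the Mgp table without overlap included Ccl2, Id2, Ahnak, Cirbp and Klf11, by 0.34 to 0.42, called with libraries as samples only. Id2, an inhibitor of basic helix-loop-helix factors and a target of bone morphogenetic protein signalling, stood at 37.4 to 42.4 CPM in 1U-named libraries against 20.5 to 28.4 CPM in the others. Ccl2, a chemokine that draws monocytes, stood at 34.3 and 33.6 CPM in Mgp1U1 and 66.6 and 65.1 CPM in Mgp1U3 libraries, against 30.2 and 32.3 CPM in Mgp1 and 29.4 and 30.0 CPM in Mgp2 libraries. Most of that difference therefore lay in Mgp1U3. The neutrophil chemokine Cxcl5 had the same shape, with 90.3 and 90.1 CPM in Mgp1U3 and 23.8 and 23.8 CPM in Mgp1U1 libraries, against 22.1 to 36.1 CPM in the others, and its difference of 0.51 was −0.12 without Mgp1U3.

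The 18 gene lists examined hold 332 genes and were described by counts with libraries as samples, beside medians over all genes tested of −0.00204 (Slpi table) and 0.000146 (Mgp table). Over all genes tested, 2.69% were called higher and 2.64% lower in the Slpi table, and 3.59% higher and 4.1% lower in the Mgp table, and the list counts stand against these shares. Of 14 genes of the small RNA pathway, 2 were higher in the Slpi table (Ago3, 0.17, and Dicer1, 0.16) and 0 in the Mgp table, with 0 lower in either and medians of 0.06 and 0.01. Ago3 lost its call without 1, and Dicer1 without 3, of the 8 Slpi-table libraries left out in turn. Both also lost it without the Slpi4 hairpin. Ago2 stood at 693 to 716 CPM in 1U-named libraries against 568 to 707 CPM in the others of the Slpi table, and at 638 to 734 CPM against 565 to 725 CPM in the Mgp table. Of 19 interferon-stimulated genes, which sense or answer double-stranded RNA, 0 were called in the Slpi table, and 3 higher and 1 lower in the Mgp table, among them Oasl2 and Rsad2 (0.15 and 0.14). Rsad2 rested on 8 to 29 reads per library there, with means of 1.54 CPM in 1U-named and 0.761 CPM in other hairpins. Oasl2 lost its call without 5, and Rsad2 without 3, of the 8 libraries left out in turn. With hairpins as samples, 0 genes of either list were called.

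The integrated stress response, in which Atf4 drives amino acid synthesis and transport genes, had the most calls. Of its 21 tested genes 19 were lower in the 1U-named lines of the Slpi table (2.64% of all genes) and 0 higher, with a median of −0.30. Among Mgp lines 2 were higher (3.59% of all genes) and 2 lower (4.1%), with a median of 0.01. The list followed single hairpins rather than the class. Slpi1U1 was the lowest hairpin for 21 of 21 genes and Slpi2 the highest for 20 of 21. The median deviation from the mean of the 4 hairpins was −0.33 in Slpi1U1 and 0.03 in Slpi1U2, against 0.36 in Slpi2 and −0.05 in Slpi4. Chac1, a glutathione-degrading enzyme named after its values were seen, stood at 21.6 and 24.8 CPM in Slpi1U1 and 91.0 and 84.2 CPM in Slpi1U2 libraries, against 120 and 113 CPM in Slpi2 and 57.9 and 62.7 CPM in Slpi4 libraries. The classes overlapped, and its difference of −0.61 was 0.02 without Slpi1U1. None of the 21 genes was called with hairpins as samples.

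**Figure D5:**
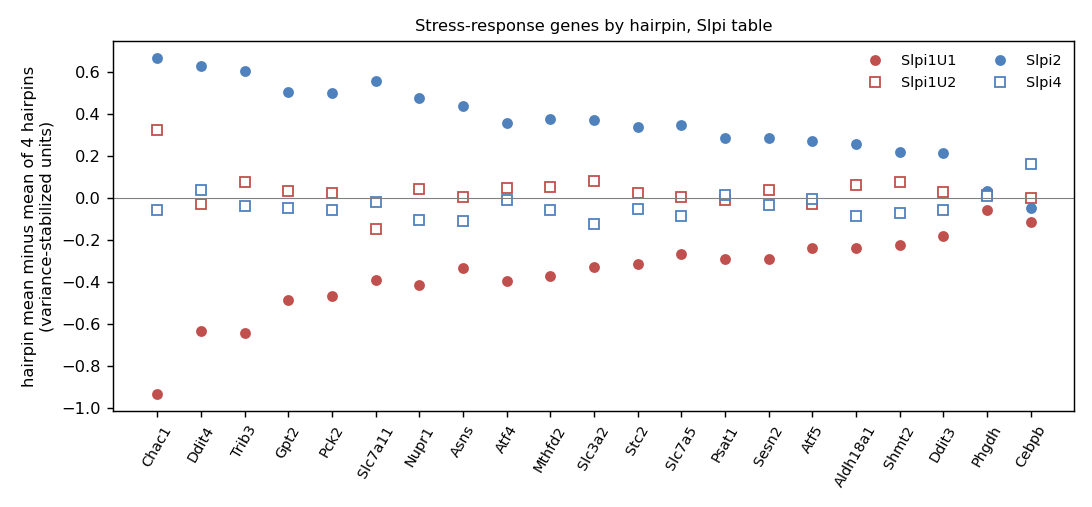
Deviation of each Slpi-table hairpin from the mean of the 4 hairpins (variance-stabilized units) for the 21 tested genes of the integrated stress response. Slpi1U1 is lowest for 21 of 21 genes and Slpi2 highest for 20 of 21, with Slpi4 highest for the remaining gene.

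Of 20 cholesterol synthesis genes 10 were lower (4.1% of all genes) and 0 higher in the 1U-named lines of the Mgp table, with a median of −0.11, and 1 of 21 was higher and 0 lower in the Slpi table. Mgp1 was the highest hairpin for 16 of the 20, and Mgp1U1 the lowest for 12 and Mgp1U3 for 8. Lss, lanosterol synthase, stood at 40.6 to 44.5 CPM in 1U-named libraries against 53.6 to 61.0 CPM in the others of the Mgp table (difference −0.29). Of 28 ribosomal protein genes 8 were lower (2.64% of all genes) and 0 higher in the Slpi table, with a median of −0.13, and 0 were called in the Mgp table. Slpi1U1 was lowest for 24 of the 28 and Slpi2 highest for 20. Ribosomal protein transcripts are short, and the part of transcript length, which moved with class in the Slpi table, was not tested here either.

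Immediate early and ERK feedback genes had 6 of 19 lower (4.1% of all genes) and 0 higher in the Mgp table, and 2 lower (2.64%) and 0 higher in the Slpi table. Jun, a subunit of AP-1, stood at 82.4 to 97.7 CPM in 1U-named libraries against 119 to 132 CPM in the others of the Mgp table (difference −0.34). Of 11 YAP and TEAD targets 1 was higher and 4 lower in the Mgp table, and among Slpi lines 1 was higher, Ccn1 (listed as Cyr61), at 189 to 197 CPM in 1U-named against 147 to 167 CPM in other libraries. Oxidative stress genes, which include Mt1 and Mt2, had 3 of 19 lower in the Slpi table (2.64% of all genes) and 3 higher in the Mgp table (3.59%). Secreted proteases and their inhibitors had 2 of 19 lower in the Slpi table, and 4 higher and 1 lower in the Mgp table. Mmp3, a stromelysin, was among them in both tables (differences −0.24 and 0.33) with overlap in each, and its Slpi-table value was 0.05 without Slpi4.

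Several of the remaining lists held larger shares of calls in the Mgp table than the 7.69% of all genes called there, and none of their genes was called with hairpins as samples. Of the inflammatory genes 1 of 16 was higher and 1 lower in the Slpi table, and 4 of 18 higher and 0 lower in the Mgp table. The median deviation of this list was 0.10 in Mgp1U3 and −0.05 in Mgp1U1, against −0.04 in Mgp1 and −0.05 in Mgp2, so it followed Mgp1U3. Of 14 mesenchymal genes 2 were higher and 0 lower for Slpi, and 4 higher and 2 lower for Mgp. Their median deviation was 0.02 in Mgp1U1 and 0.01 in Mgp1U3, against −0.01 in Mgp1 and 0.004 in Mgp2. Of 13 p53 targets 1 was higher and 2 lower for Slpi, and 3 higher and 1 lower for Mgp. Endoplasmic reticulum chaperones had 1 of 16 lower for Slpi and 3 higher for Mgp. Their median deviation was 0.07 in Mgp1U3 and −0.02 in Mgp1U1, against −0.01 in Mgp1 and −0.04 in Mgp2. Replication and mitosis genes had 1 of 25 higher and 2 lower for Slpi, and 2 higher and 0 lower for Mgp. Of 6 bone morphogenetic protein targets 0 were called for Slpi, and 2 were higher and 1 lower for Mgp. Of 7 mineralization regulators 1 was lower for Slpi, and 2 were higher and 1 lower for Mgp. Of 20 hypoxia and glycolysis genes 1 was higher and 1 lower in the Slpi table and 0 were called in the Mgp table. Of the epithelial genes 0 of 17 were called in the Slpi table, and Cldn4 and Krt19 were lower among 16 in the Mgp table.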

How the data were processed

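RNA-seq values of 4T1 lines were analysed from 1 table per targeted gene. Reads were processed with Bowtie2, HTSeq and DESeq on mm10, per the submitters' processing notes; no version, strand setting or counting annotation is given there. The authors deposited variance-stabilized values on a log2-like scale, which compresses differences of low genes: a doubling from 100 scaled reads is 0.36 (Slpi) and 0.34 (Mgp), and from 10000 it is 0.97 and 0.96. The transform was inverted to reads for totals and CPM, and 100.0% of values came out whole (tolerance 0.001); voom on these reads called 699 (Slpi) and 1072 (Mgp) genes with libraries as samples. Columns could be tied to hairpins but not to single samples.

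Genes whose mean lay at least 0.25 units above the smallest value of a table (7.3 scaled reads for Slpi, 8.4 for Mgp) were tested with limma 3.58.1 in R 4.3.3, with hairpins or libraries as samples, at a Benjamini-Hochberg adjusted p of 0.05 over all genes. Fits were run on simulated data whose spread between hairpins and libraries was set, not estimated from these libraries. That run therefore does not give the error rates of these comparisons. Differences are 1U-named minus other, and folds are from scaled reads.

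Named genes were both targets, up to 12 per direction of the same direction in both tables without overlap (by the smaller difference), up to 6 per direction and table called with hairpins as samples (or, where there were none, without overlap), the 4 largest of opposite direction, 2 called members per list, and Ago2, Dicer1, Drosha and Xpo5; 1 gene that the rule names is not reported here. Members and lists were chosen with earlier results of these data known. Alternatives were other scalings, filters, voom on recovered reads, the catalogue hairpin in the fit, a replicate block, and leaving out hairpins or libraries. Thinning to equal depth was added after the data were seen.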

Additional observations from a re-analysis of the deposited data

Results flagged for a closer look

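In 11 of 264 sets of 4 libraries, 1 library stood apart from the other 3 of its class and table. The cut used flags about 1 in 20 sets of 4 independent values by chance. Libraries of a hairpin are not independent, so the count of 11 cannot be set against that rate. A gap between the hairpins of a set also makes it harder for a single library to stand apart. In the Mgp table the second Mgp1U3 library had 120 CPM of Ttll4 (others 108 to 108), 128 of Nf1 (115 to 117), 53.9 of Ajuba (47.2 to 47.3) and 89.6 of Xpo5 (76.3 to 78.2). The first Mgp1U3 library had 42.4 CPM of Id2 (others 37.4 to 38.2) and 45.0 of Bmp7 (50.4 to 51.4). The first Mgp1U1 library had 6.08 CPM of Sycp1 (others 6.85 to 6.95), and the first Mgp2 library had 90.6 CPM of Ttll4 (others 101 to 103). In the Slpi table the first Slpi1U2 library had 330.01 CPM of Ndrg1 (others 301 to 305) and 64.0 of Perp (59.7 to 60.1), and the second Slpi4 library had 76.5 CPM of Mt2 (others 64.7 to 66.2).

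For 8 named genes every 1U-named library lay on 1 side of the others in the Slpi table and on the opposite side in the Mgp table. Over all 12261 genes tested in both tables, 108 did so (0.881%). Ccnb1ip1, 2610203C20Rik, Cirbp and Snhg1 were named by a rule that asked for this, so naming partly set the count of 8. The difference between the tables was not tested. The differences in the Slpi and Mgp tables were 0.45 and −0.48 for Ccnb1ip1, −0.27 and 0.34 for Cirbp, 0.42 and −0.34 for 2610203C20Rik (Mir100hg), and −0.22 and 0.30 for Snhg1. They were −0.54 and 0.16 for the cystine transporter Slc7a11, −0.081 and 0.13 for the replication helicase subunit Mcm6, 0.092 and −0.15 for Ajuba, and −0.21 and 0.15 for the gelatinase Mmp9. Mcm6 and Ajuba were not called in the Slpi table with libraries as samples (limma, adjusted p = 0.172 and 0.111).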

How the results depend on the processing

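Calls with hairpins as samples in the Slpi table (3) numbered 1 with quantile normalization, 0 without a filter, 1 with a minimum of 1 unit, 0 without Slpi1U1, 0 without Slpi1U2, 365 without Slpi2 and 255 without Slpi4. In the Mgp table (1) they numbered 0 without a filter, 0 with voom, 8 without Mgp1, 74 without Mgp1U1, 3 without Mgp2 and 43 without Mgp1U3. Without a hairpin its arm holds 1 hairpin, which is assumed to vary like the pair of the other arm, the only source of the spread, so these are not calls of a class. Leaving out 1 library gave 0 to 5 and 0 to 3. Calls with libraries as samples numbered 126 (Slpi) and 454 (Mgp) without a filter, 410 without Slpi1U2, 293 without Slpi4 and 487 without Mgp1U3, and 209 to 1156 and 284 to 2180 without 1 library. Genes called the same way (43) numbered 5 without a filter, 14 without Mgp1U3 and 14 to 72 without 1 library, and with hairpins as samples 0 to 0. Those of opposite direction (76) numbered 18 without a filter, 40 without Slpi1U2, 35 without Slpi4, 127 without Mgp2 and 28 to 118 without 1 library. The causes of these changes were not tested.

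The Slpi target difference was 0.048 without Slpi4 in both fits, −0.18 without Slpi2 with libraries as samples, and −0.09 to −0.05 without 1 library. The Mgp target difference was −0.17 without Mgp1U1 in both fits, 0.47 without Mgp1U3 with hairpins as samples, 0.11 without Mgp2 (call lost) and 0.39 with voom (call lost, and on a plain log2 scale that is not comparable in size) with libraries as samples, and 0.14 to 0.17 without 1 library. Of 1927 values for 97 results of single genes, 1517 kept their call, 403 lost it and 7 reversed: Slpi in the Mgp table (−0.031) and Cxcl5 (−0.12) without Mgp1U3, Mgp in the Slpi table (0.11), Ccl2 (0.18) and Mmp3 (0.048) without Slpi4, Tnc (−0.0066) without Slpi1U2 and Chac1 (0.017) without Slpi1U1.

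With the replicate block, 750 (Slpi) and 1198 (Mgp) genes were called, 56 the same way and 84 in opposite directions. Correlations of same-numbered deviations ran from −0.21 to 0.46 and −0.14 to 0.24, and the highest was that of Slpi1U1 with Slpi4. Whether libraries with the same number share a batch was not tested. With reads thinned to the shallowest library, chosen after seeing the data, 3 and 1 genes were called with hairpins and 569 and 765 with libraries as samples, 32 the same way and 57 in opposite directions. Mgp rested on 15 to 140 reads per library in its own table, which limits its precision.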
